A study of Mus musculus with 9 samples.

Results

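The proteasome genes were taken by name, as every gene whose symbol starts with Psma, Psmb, Psmc, Psmd, Psme, Psmf or Psmg and a digit, and 5 pseudogene rows were left out. This rule used no measured value and gave 51 of the 53077 genes listed, of which 49 had enough reads to be tested. The 9 RNA samples, 3 groups of 3 replicates, came from the mouse multiple myeloma line 5TGM1 made to express the nuclease Cas9 constitutively (5TGM1-Cas9). Control cells carried a lentiviral guide RNA (gRNA) against *Rosa26*, a locus commonly used as a neutral target. The second group carried a gRNA against *Slc2a1*, which encodes the glucose transporter GLUT1. The third (*Slc2a1/3/5/6/8* gRNA) also carried gRNAs against the hexose transporter genes *Slc2a3*, *Slc2a5*, *Slc2a6* and *Slc2a8*, and was made by adding the *Slc2a1* gRNA to a line already edited at the other loci, sorted for its reporter and expanded. All groups therefore shared the Cas9 transgene and a gRNA vector. The edited cultures were mixed populations and not clones. The study calls the replicates biological, but neither it nor the labels say that they were separate cultures, so the p-values measure only the spread between these samples, which may be technical. The comparisons ask how the transcripts of the protein degradation machinery differ between these groups. Sorting and expansion are described only for the third group, so in its comparisons gene targeting and line history cannot be told apart.

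The 26S proteasome degrades proteins that carry ubiquitin chains. Its barrel-shaped 20S core is built from alpha and beta subunit rings with the protease sites on the inner face of the beta rings, and the 19S regulatory particle on its ends recognizes, unfolds and feeds in the substrate. In cells of the immune system, and after interferon, the inducible catalytic subunits encoded by *Psmb8*, *Psmb9* and *Psmb10* take the places of the standard catalytic subunits encoded by *Psmb5*, *Psmb6* and *Psmb7*, which changes the peptides that are cut for display on MHC class I. Plasma cells and myeloma cells make large amounts of antibody chains and depend heavily on the proteasome, which is the target of proteasome inhibitor therapy.

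Each sample had between 21838805 and 30537105 estimated counts, and the 51 genes took 0.444% to 0.493% of them. Of 7 plasma cell marker genes, 6 were at 1 TPM or more in every sample and the exception was *Tnfrsf17*, whereas no B cell, T cell or myeloid marker exceeded 1.65 TPM in any sample. Of 3 stromal markers, *Pecam1* reached at most 4.97 TPM. Some markers moved with the groups: the antibody chain gene *Jchain* had log2 fold changes of -1.33 in *Slc2a1* gRNA (adjusted p = 0.00529 by edgeR) and 0.59 in *Slc2a1/3/5/6/8* gRNA cells (adjusted p = 0.0348 by edgeR) against control, and *Pecam1* one of -1.14 in *Slc2a1/3/5/6/8* gRNA cells (adjusted p = 0.00319 by edgeR). The other plasma cell markers did not pass in either comparison with control, and the part of these changes in the results below was not tested. Between the edited groups *Jchain* differed by 1.92 (adjusted p = 0.000221 by edgeR) and *Pecam1* by -0.88 (adjusted p = 0.0382 by edgeR). The targeted gene *Slc2a1* was at 26.9 to 59.5 TPM in control, 28.3 to 37.1 TPM in *Slc2a1* gRNA and 19.1 to 31.5 TPM in *Slc2a1/3/5/6/8* gRNA cells. Its change passed the test in the *Slc2a1/3/5/6/8* gRNA cells (log2 fold change -0.66, adjusted p = 0.029 by edgeR) and not in the *Slc2a1* gRNA cells (log2 fold change -0.21, adjusted p = 0.544 by edgeR). Of the other targets in these cells *Slc2a8* and *Slc2a6* fell (log2 fold changes -1.22 and -0.67, adjusted p = 0.000309 and 0.0366 by edgeR), *Slc2a5*, at no more than 1.42 TPM in any sample, rose (2.65, adjusted p = 0.00478 by edgeR), and *Slc2a3* did not pass (0.27, adjusted p = 0.259 by edgeR). A transcript level does not test a frameshift in the coding sequence.

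The stretches upstream of the RefSeq start sites are shown for the 3 inducible catalytic genes and for *Psmg4*, since the differences reported here turn mostly on them. They were chosen after their values were seen. They come from RefSeq on GRCm38.p6 and are written 5′ to 3′ along the gene's own strand, with motif matches in capitals. GENCODE M21, used for the gene spans given below, starts these genes farther upstream, except *Psmg4*, so that the *Psmb8* and *Psmb9* stretches lie inside the annotated gene and the *Psmb10* stretch lies partly inside it. *Psmb9* and *Tap1*, a gene of the transporter that moves cut peptides into the endoplasmic reticulum, are transcribed in opposite directions from start sites at positions 34187330 and 34187556 of chromosome 17, and the 225 bases between them are shown on the strand of *Psmb9*.
*Psmb9* to *Tap1*, chr17:34187331-34187555, minus strand: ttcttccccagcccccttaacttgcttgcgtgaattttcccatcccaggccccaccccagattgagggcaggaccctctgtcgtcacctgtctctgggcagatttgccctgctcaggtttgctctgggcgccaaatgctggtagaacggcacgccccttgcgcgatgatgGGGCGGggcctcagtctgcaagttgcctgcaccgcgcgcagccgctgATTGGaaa
*Psmb8*, chr17:34197945-34198194, plus strand: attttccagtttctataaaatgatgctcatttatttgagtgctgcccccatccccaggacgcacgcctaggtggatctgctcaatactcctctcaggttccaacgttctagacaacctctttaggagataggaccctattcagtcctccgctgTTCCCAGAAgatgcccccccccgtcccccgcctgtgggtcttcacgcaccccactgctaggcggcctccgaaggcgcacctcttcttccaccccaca
*Psmb10*, chr8:105938393-105938642, minus strand: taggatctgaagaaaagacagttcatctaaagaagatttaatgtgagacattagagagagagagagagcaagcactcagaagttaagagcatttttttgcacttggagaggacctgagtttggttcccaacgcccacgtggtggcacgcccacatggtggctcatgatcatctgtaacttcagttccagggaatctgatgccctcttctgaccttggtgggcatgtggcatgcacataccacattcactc
*Psmg4*, chr13:34162714-34162963, plus strand: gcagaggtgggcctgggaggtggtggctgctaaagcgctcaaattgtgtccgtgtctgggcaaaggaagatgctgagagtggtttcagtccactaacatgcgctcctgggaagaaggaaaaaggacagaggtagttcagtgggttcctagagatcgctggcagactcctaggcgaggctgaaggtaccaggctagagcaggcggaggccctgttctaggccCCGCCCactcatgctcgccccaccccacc

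The motifs searched, on both strands of the 300 bases around each start site, were the interferon-stimulated response element, the gamma-activated sequence TTCNNNGAA, the antioxidant response element core TGACNNNGC, the GC box GGGCGG and the CCAAT box CCAAT. The *Psmb9* to *Tap1* stretch held a GC box and, on the reverse strand, a CCAAT box. The *Psmb8* stretch held a gamma-activated sequence that reads as a match on both strands and starts 97 bases before the start site. No match was found in the *Psmb10* stretch. *Psmg4* had a GC box on the reverse strand and an interferon-stimulated response element match starting 16 bases after its start site, beyond the stretch shown. Of the 43 proteasome genes with a promoter entry, 24 (55.8%) held the GC box against 38.2% of 27025 genes, and 16 (37.2%) held CCAAT against 41.1%. The interferon-stimulated element was present in 5 (11.6%, *Psmb3*, *Psmd4*, *Psmd9*, *Psme1* and *Psmg4*) against 3.99% of genes, the gamma-activated sequence in 3 (6.98%, *Psmb8*, *Psmd2* and *Psmg1*) against 9.55%, and the antioxidant core in 6 (14.0%) against 14.0%. Such matches describe letters and not bound sites.

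The 51 genes were grouped by role. The alpha ring has 7 genes (*Psma1* to *Psma7*), the structural beta subunits 4 (*Psmb1* to *Psmb4*), the standard catalytic subunits 3, the inducible catalytic subunits 3, the ATPases that unfold substrate at the base of the 19S particle 6 (*Psmc1* to *Psmc6*) and the other 19S subunits 11. A further 5 genes encode caps or inhibitors that bind the core ends (*Psme1* to *Psme4*, *Psmf1*), and 7 encode assembly chaperones (*Psmg1* to *Psmg4*, *Psmd5*, *Psmd9*, *Psmd10*). The remaining 5 were the testis subunit gene *Psma8* and the thymus subunit gene *Psmb11*, the paralogous copy *Psme2b*, and *Psmc3ip* and *Psme3ip1*, which match by name but do not encode subunits. Of 51 genes, 50 were found in the GENCODE M21 annotation, on 16 chromosomes.

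Levels between genes were compared in TPM, transcript abundances scaled by length and by the library total. The most abundant gene in control cells was *Psmd8*, a lid subunit gene of the 19S particle, at 303 ± 21.4 TPM (SD, n = 3). It was followed by *Psmb6* (217 ± 12.9), *Psmb3* (203 ± 8.03), *Psmb8* (193 ± 9.24) and *Psma7* (191 ± 12.9). Each of these 4 overlapped its neighbour in the order across the control replicates. The median over the 49 tested genes was 66.2 TPM, against 8.69 TPM over all genes tested. *Psma8* was listed at 0 in every sample and *Psmb11* did not exceed 0.075 TPM, and these were the 2 genes not tested.

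Subunits of one ring were not equally abundant as transcripts. In control cells the highest gene exceeded the lowest by 3.99 times in the alpha ring, 1.73 times among structural beta subunits, 1.71 times among the 19S ATPases and 9.22 times among the other 19S subunits, where *Psmd12* was lowest at 32.9 TPM. The widest range was among assembly chaperones (12.9 times), from *Psmd9* at 9.10 TPM to *Psmg4*, a gene of the chaperones that build the alpha ring, at 117 ± 3.20 TPM. Among the caps, *Psme1* was at 113 ± 11.7 TPM and its partner *Psme2* at 53.9 ± 7.33 TPM.

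**Figure D1:**
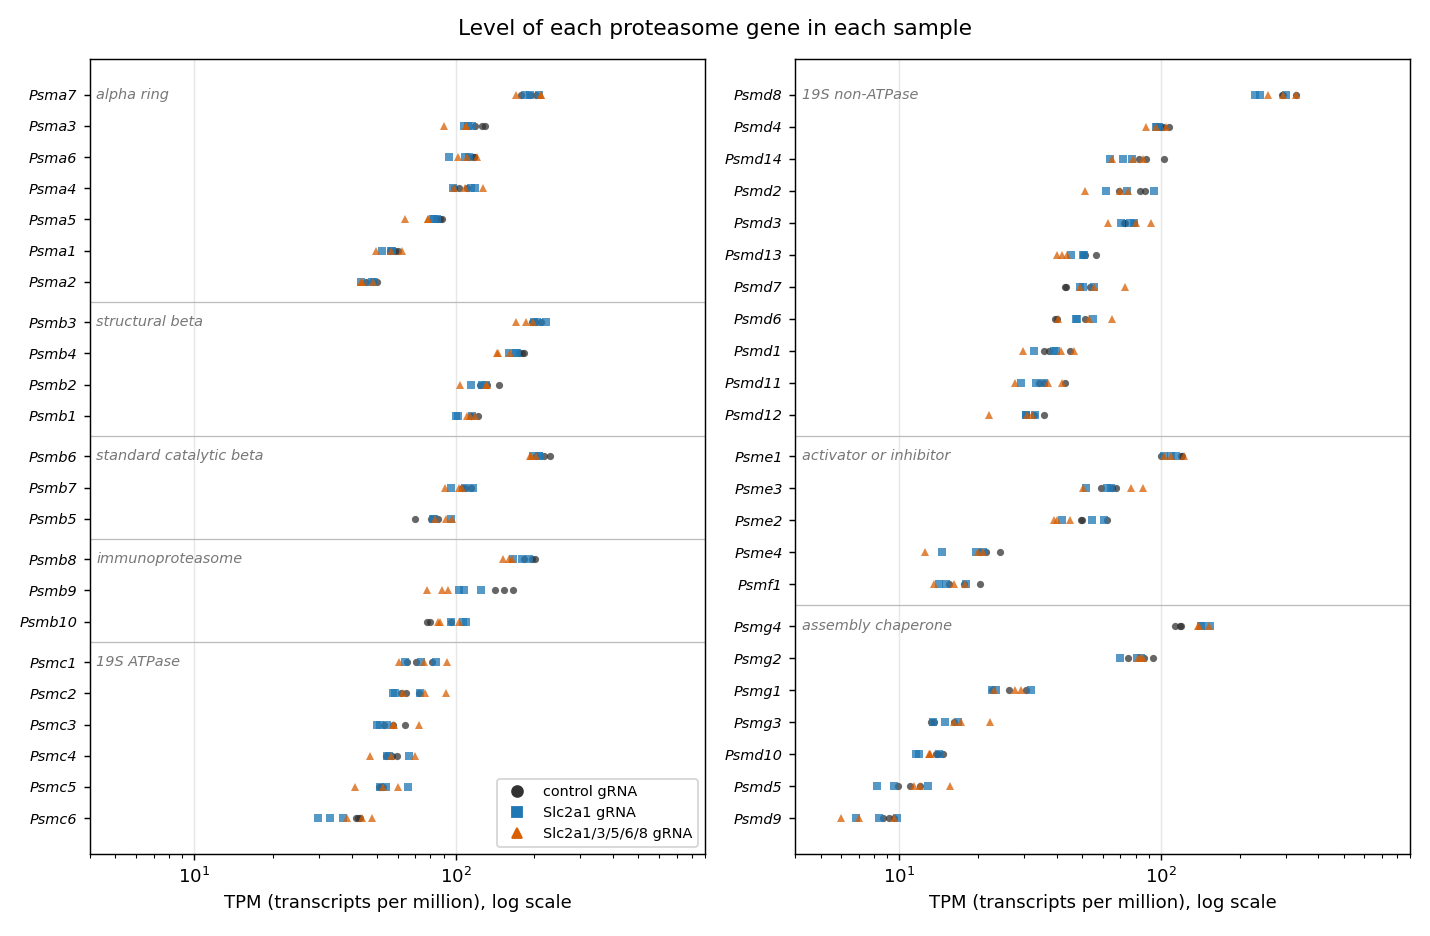
Level of each tested proteasome gene in TPM (log axis) in each of the 9 samples, grouped by role, with one point per sample coloured by group. *Psmb9* has its *Slc2a1/3/5/6/8* gRNA points (77.5 to 93.2) below its control points (142 to 166).

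The inducible catalytic genes were expressed at about the level of the standard ones. Their summed level in control replicates 1, 2 and 3 was 444, 429 and 421 TPM, and that of *Psmb5*, *Psmb6* and *Psmb7* was 416, 412 and 388 TPM. In the *Slc2a1* gRNA replicates the inducible sum was 392, 380 and 413 TPM, and in the *Slc2a1/3/5/6/8* gRNA replicates it was 331, 351 and 328 TPM. In TPM the *Slc2a1/3/5/6/8* gRNA samples were the lowest 3 of the 9, and neither group overlapped the control samples. On the TMM-scaled counts used for the tests below the same sum was 402.9, 395.3 and 318.8 in control, 355.5, 377.4 and 349.5 in *Slc2a1* gRNA and 357.6, 267.5 and 250.3 in *Slc2a1/3/5/6/8* gRNA cells, and both edited groups overlapped control. On the log2(TPM + 1) scale the median of all genes also lay at -0.11 in *Slc2a1* gRNA against control. The standard catalytic sum was 420, 387 and 388 TPM in *Slc2a1* gRNA and 385, 379 and 397 TPM in *Slc2a1/3/5/6/8* gRNA cells, where both groups overlapped control. In such bulk samples fewer cells with a transcript and less of it per cell cannot be told apart.

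In TPM the sums of the other subunit, cap and chaperone classes overlapped control in both comparisons, apart from the structural beta subunits and the assembly chaperones. The structural beta sum was 633, 626 and 638 TPM in control, 621, 587 and 606 TPM in *Slc2a1* gRNA and 530, 574 and 607 TPM in *Slc2a1/3/5/6/8* gRNA cells, so that both groups lay below control in TPM. The chaperone sum was 287, 264 and 279 TPM in control, 313, 279 and 297 TPM in *Slc2a1* gRNA, and 293, 299 and 327 TPM in *Slc2a1/3/5/6/8* gRNA cells, the last group lying above control in TPM. These separations were not seen in CPM, counts relative to library size scaled by the TMM method, where the structural beta and chaperone sums of both edited groups overlapped control. The cap and inhibitor sum was apart from control in CPM and not in TPM, at 528.6, 461.2 and 461.3 in *Slc2a1* gRNA against 444.5, 443.8 and 434.1 in control. In CPM the 4 structural beta genes had log2 fold changes of 0.01 to 0.19 in the *Slc2a1* gRNA cells, so that the direction turned there. The alpha ring was at 716 to 739 TPM in control, 665 to 740 TPM in *Slc2a1* gRNA and 659 to 758 TPM in *Slc2a1/3/5/6/8* gRNA cells. The 19S particle was at 1189 to 1345, 1071 to 1219 and 1041 to 1423 TPM in the same order. Within the *Slc2a1/3/5/6/8* gRNA group the replicates differed more than in control, from 3486 TPM in replicate 1 to 4179 TPM in replicate 3 over all 51 genes, against 3924 to 4133 TPM in control. The share of counts from mitochondrial genes also differed most within that group, at 11.1%, 5.84% and 4.91% in replicates 1, 2 and 3, and its part in these sums was not tested.

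Differences between groups were tested on estimated counts with edgeR, and are given as log2 fold changes in CPM. In the *Slc2a1* gRNA cells 2 of the 49 tested proteasome genes rose and 0 fell, which is 4.08% of them, against 4.64% of all 13834 genes tested in either direction (2.25% higher and 2.39% lower). The share called among the proteasome genes was thus near the background. Their log2 fold changes were narrower than those of all genes, with an interquartile range of 0.172 against 0.438, and 47 of 49 were below 0.5 in size. The median standard error was 0.116 for the proteasome genes and 0.148 for all genes, and the proteasome genes are more abundant and shorter (median length 1318 against 2354 bases). Among genes at 39.2 to 113 TPM in control, 4.0% of 25 proteasome genes and 7.0% of 1458 others were called. Their interquartile ranges were 0.169 and 0.332. These differences were not tested. The median change was 0.076, against -0.0013 for all genes, but it was -0.018 when libraries were scaled by total count, so no direction is given for the family.

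*Psmb10*, an inducible catalytic subunit gene (chr8:105935735-105938444 of GRCm38, minus strand), rose in the *Slc2a1* gRNA cells. Control replicates were at 35.1, 36.6 and 36.4 CPM and the *Slc2a1* gRNA replicates at 55.9, 55.2 and 43.3. Each edited sample lay above every control sample, and replicate 3 was the closest. The log2 fold change was 0.50 (95% interval 0.25 to 0.75, a fold of 1.42, adjusted p = 0.0323 by edgeR), with the same direction in 3 of 3 replicate pairs. The call was lost when any control replicate or *Slc2a1* gRNA replicate 1 or 2 was left out (adjusted p 0.0824 to 0.236 by edgeR), with log2 fold changes of 0.40 to 0.63. It was also lost with total count scaling (0.41, adjusted p = 0.0629 by edgeR) and with limma on log2(TPM + 1) (0.30, adjusted p = 0.290). No exon of another gene overlaps *Psmb10* in the annotation.

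*Psmg4* (chr13:34162964-34178173, plus strand), the chaperone gene, was the other gene called. It was at 33.3, 34.4 and 26.8 CPM in control and 46.9, 48.4 and 39.1 in *Slc2a1* gRNA cells, with no overlap. The log2 fold change was 0.51 (0.23 to 0.79, adjusted p = 0.0429 by edgeR). Without the replicate number as a block the adjusted p was 0.0706 by edgeR, and leaving out any single control or *Slc2a1* gRNA replicate gave 0.0586 to 0.257.

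The standard catalytic subunit genes did not pass the test in the *Slc2a1* gRNA cells. For *Psmb5*, the chymotrypsin-like subunit and the main site bound by bortezomib, CPM were 58.0, 64.3 and 42.9 in control and 73.9, 68.6 and 57.9 in edited cells, with a log2 fold change of 0.28 (-0.02 to 0.59, adjusted p = 0.264 by edgeR). The groups overlapped, since *Slc2a1* gRNA replicate 3 was below control replicate 2. On leaving out 1 sample the log2 fold change of *Psmb5* ran from 0.18 to 0.47. The gene passed with only the 2 groups compared (log2 fold change 0.29, adjusted p = 0.0454 by edgeR). For *Psmb6*, the caspase-like subunit, the interval was -0.21 to 0.35, and for *Psmb7*, the trypsin-like subunit, -0.12 to 0.35, so that a change of 0.5 on the log2 scale lay outside both. Of the other inducible genes, the value was 0.03 for *Psmb8* (-0.22 to 0.28, adjusted p = 0.910 by edgeR). It was -0.25 for *Psmb9* (-0.59 to 0.09, adjusted p = 0.375 by edgeR), although its TPM of 103, 108 and 125 lay below all control values, and on leaving out 1 sample it ran from -0.44 to -0.05 (adjusted p 0.138 to 0.912 by edgeR). The proteasome activator genes *Psme1* and *Psme2*, whose products form the 11S cap induced by interferon, had log2 fold changes of 0.13 and 0.11 (adjusted p = 0.519 and 0.606 by edgeR).

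Across classes in the *Slc2a1* gRNA comparison, none of the 14 genes of the 20S core outside the inducible 3 passed the test. Their log2 fold changes ran from 0.01 to 0.28. Of all genes tested 4.64% were called, so counts of 0 in classes this small say little. None of the 17 genes of the 19S particle passed, with a range from -0.17 for *Psmd14*, the deubiquitinase of the lid, to 0.43 for *Psmd6*, a lid scaffold gene (adjusted p = 0.0656 by edgeR). *Psmd6* did pass with DESeq2 (adjusted p = 0.0239). By edgeR it passed without a filter on low counts (adjusted p = 0.018) and with at least 10 counts in every sample (0.0491). With only the 2 groups compared both *Psmd6* (adjusted p = 0.00835 by edgeR) and *Psmd7* (0.0348) passed. None of the 5 cap and inhibitor genes passed, and *Psme3*, whose product caps nuclear proteasomes, had the largest difference among them (log2 fold change 0.35, adjusted p = 0.115 by edgeR). *Psme3* did pass with DESeq2 (log2 fold change 0.35, adjusted p = 0.0497) and with only the 2 groups compared (0.34, adjusted p = 0.0221 by edgeR). All 49 intervals lay within a log2 fold change of 1 on either side of 0, and 38 lay within 0.5.

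**Figure D2:**
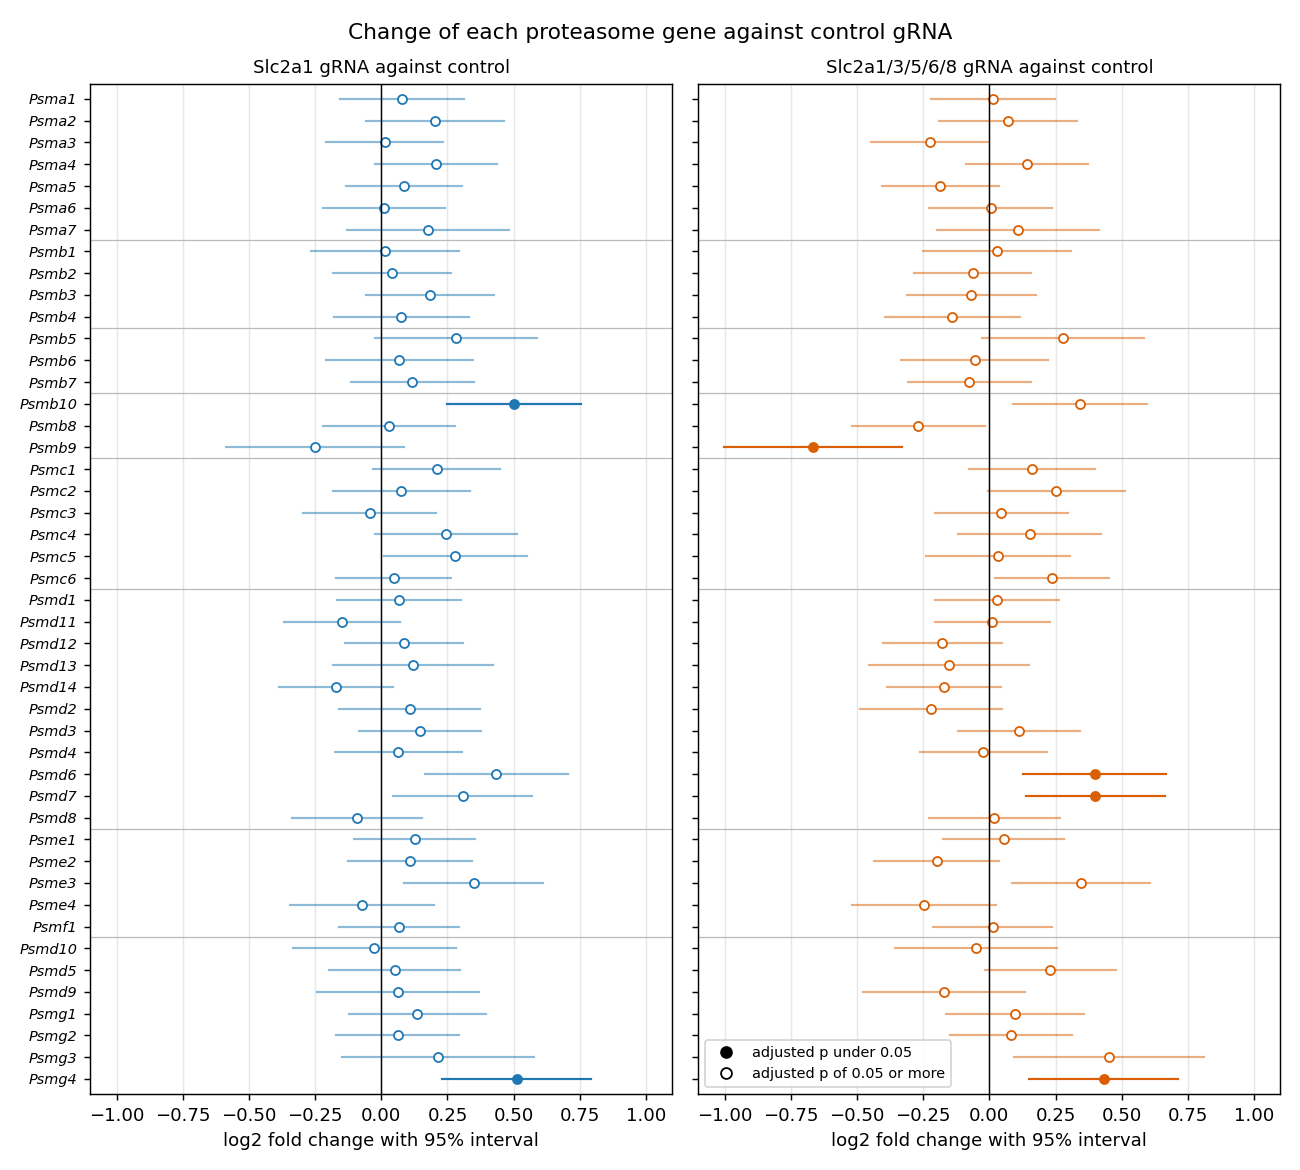
Log2 fold change of each tested proteasome gene against control gRNA with its 95% interval, for *Slc2a1* gRNA (left) and *Slc2a1/3/5/6/8* gRNA (right), with filled points for an adjusted p under 0.05. Filled points are *Psmb10* and *Psmg4* on the left, and *Psmb9* (-0.67), *Psmg4*, *Psmd7* and *Psmd6* on the right.

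In the *Slc2a1/3/5/6/8* gRNA cells 3 of the 49 genes rose and 1 fell, which is 8.16% of them, against 15.9% of all genes tested in either direction (8.49% higher and 7.44% lower). The share among the proteasome genes was lower than the share among all genes, and that difference was not tested. The median log2 fold change was 0.03, against 0.01 for all genes, and the interquartile range was 0.292 against 0.550. Among genes at 39.2 to 113 TPM in control, 8.0% of 25 proteasome genes and 21.0% of 1458 others were called. Their interquartile ranges were 0.258 and 0.374, and these differences were not tested either. Of 49 genes, 48 changed by less than 0.5 in size, and 36 of the 95% intervals lay within 0.5. An unadjusted p under 0.05 was found for 11 of the 49 proteasome genes and for 4342 of the 13834 genes tested.

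The gene that fell was *Psmb9*, the inducible subunit gene that replaces *Psmb6* (chr17:34181987-34187764, minus strand). Control replicates were at 192, 182 and 143 CPM, the *Slc2a1* gRNA replicates at 129, 148 and 150, and the *Slc2a1/3/5/6/8* gRNA replicates at 143, 98.0 and 86.8. In these units *Slc2a1/3/5/6/8* gRNA replicates 2 and 3 lay below every control sample, *Slc2a1/3/5/6/8* gRNA replicate 1 was level with control replicate 3, and the *Slc2a1* gRNA replicates overlapped control. The fall was 0.67 on the log2 scale (-1.0 to -0.33, a fold of 0.630, adjusted p = 0.0145 by edgeR). It was present in 3 of 3 pairs by replicate number, but the numbers did not pair these samples (same-number correlations 0.191, -0.113 and 0.177). In TPM, control replicates were at 166, 153 and 142 and the *Slc2a1/3/5/6/8* gRNA replicates at 93.2, 88.2 and 77.5, with no overlap. The call was lost without control replicate 1 or 2 or without *Slc2a1/3/5/6/8* gRNA replicate 2 or 3 (adjusted p 0.0577 to 0.0886 by edgeR), with log2 fold changes of -0.66 to -0.56. In the annotation 5.79% of its exonic bases overlap *Tap1* on the other strand, and the library kit did not mark strand.

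The other inducible genes did not pass the main test in these cells. *Psmb8* on the other side of *Tap1* (chr17:34197721-34201454, plus strand), was at 176, 177 and 140 CPM in control and 161, 124 and 124 in *Slc2a1/3/5/6/8* gRNA cells, with overlap. In TPM *Psmb8* was at 201, 196 and 183 in control and 152, 160 and 163 in *Slc2a1/3/5/6/8* gRNA cells, with no overlap. Its log2 fold change was -0.27 (-0.52 to -0.02, adjusted p = 0.135 by edgeR). On leaving out 1 sample that value ran from -0.37 to -0.16 (adjusted p 0.0539 to 0.439 by edgeR). *Psmb10* was at 53.1, 45.7 and 39.5 CPM, above every control sample, with a log2 fold change of 0.34 (0.09 to 0.59, adjusted p = 0.0643 by edgeR). In TPM *Psmb10* was at 77.4, 80.0 and 96.1 in control and 85.9, 103 and 86.8 in *Slc2a1/3/5/6/8* gRNA cells, with overlap. With a correction for gene length in the same fit both *Psmb8* (adjusted p = 0.0496 by edgeR) and *Psmb10* (adjusted p = 0.0471 by edgeR) passed. The intervals of *Psmb9* and *Psmb10* lie on opposite sides of 0 and do not overlap. That of *Psmb8* lies on the same side as that of *Psmb9* and overlaps it.

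The genes called higher in the *Slc2a1/3/5/6/8* gRNA cells were *Psmg4*, *Psmd7* and *Psmd6*. *Psmg4* was at 50.5, 35.5 and 41.1 CPM, above the control values of 26.8 to 34.4. Its log2 fold change was 0.43 (0.15 to 0.71, adjusted p = 0.0406 by edgeR, and 0.0683 without the replicate block). *Psmd7*, which encodes the partner of the deubiquitinase in the 19S lid (chr8:107580381-107588464, minus strand), was at 65.5, 69.3 and 69.5 in control and 93.5, 77.7 and 99.0 in *Slc2a1/3/5/6/8* gRNA cells. *Psmd6* (chr14:14112174-14120984, minus strand) was at 48.8, 50.4 and 49.8 in control and 62.5, 60.3 and 73.4 in *Slc2a1/3/5/6/8* gRNA cells. In CPM no edited sample of either lid gene reached down to a control sample. In TPM both overlapped control. *Psmd7* was at 42.9, 43.3 and 53.6 TPM in control and 49.1, 55.4 and 72.6 in *Slc2a1/3/5/6/8* gRNA cells. *Psmd6* was at 39.3, 39.9 and 51.1 TPM in control and 40.3, 53.0 and 64.9 in *Slc2a1/3/5/6/8* gRNA cells. The log2 fold changes were 0.40 (0.14 to 0.66, adjusted p = 0.0419 by edgeR) for *Psmd7* and 0.40 (0.13 to 0.67, adjusted p = 0.0475 by edgeR) for *Psmd6*. These 3 calls were each lost on leaving out any control replicate, *Slc2a1* gRNA replicate 2 or *Slc2a1/3/5/6/8* gRNA replicate 3, and those of *Psmg4* and *Psmd7* also without *Slc2a1/3/5/6/8* gRNA replicate 1, with adjusted p up to 0.249 by edgeR. Where lost, the log2 fold changes were 0.34 to 0.53 for *Psmg4*, 0.30 to 0.45 for *Psmd7* and 0.26 to 0.44 for *Psmd6*. The highest log2 fold change among the tested proteasome genes, 0.45 for the chaperone gene *Psmg3*, did not pass (adjusted p = 0.0826 by edgeR). *Psmg3* passed by edgeR with the length correction and the replicate block (adjusted p = 0.044) and without *Slc2a1/3/5/6/8* gRNA replicate 2 (0.0328).

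**Figure D3:**
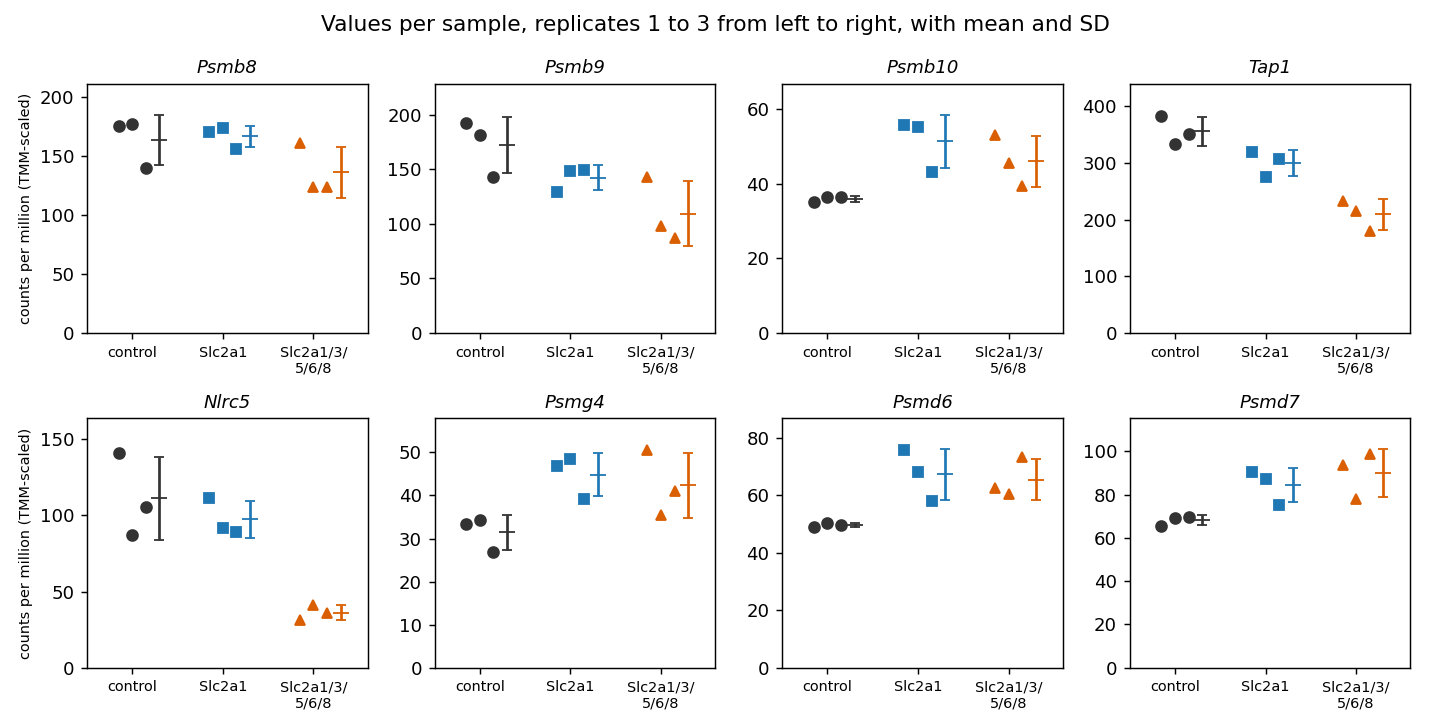
TMM-scaled CPM of selected genes in each of the 9 samples, replicates 1 to 3 from left to right, with the group mean and SD. *Psmb9* falls from 172 ± 26.0 in control to 109 ± 30.0 in *Slc2a1/3/5/6/8* gRNA cells, while *Psmb10*, *Psmg4*, *Psmd6* and *Psmd7* have no edited sample below their control samples.

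Standard catalytic, structural and most 19S genes did not pass the test in the *Slc2a1/3/5/6/8* gRNA cells. *Psmb5* was at 81.7, 54.5 and 63.4 CPM, overlapping the upper part of the control range, with a log2 fold change of 0.28 (adjusted p = 0.202 by edgeR). It passed when *Slc2a1/3/5/6/8* gRNA replicate 2 was left out (log2 fold change 0.48, adjusted p = 0.0244 by edgeR), and over all single omissions its value ran down to 0.18 with adjusted p up to 0.597. The values were -0.06 for *Psmb6* and -0.08 for *Psmb7* (adjusted p = 0.805 and 0.672 by edgeR). Over the 14 core genes outside the inducible 3 the log2 fold changes ran from -0.23 for *Psma3* to 0.28 for *Psmb5*, with 7 above 0 and 7 below. Of the 17 genes of the 19S particle, 2 rose and 0 fell, which is 11.8% of them, against 15.9% of all genes tested. That difference was not tested. The 6 ATPase genes ran from 0.03 to 0.25. Among the caps, the log2 fold change was 0.05 for *Psme1* (adjusted p = 0.765 by edgeR) and -0.20 for *Psme2* (-0.44 to 0.04, adjusted p = 0.232 by edgeR). It was 0.35 for *Psme3* (adjusted p = 0.0687 by edgeR) and -0.25 for *Psme4* (adjusted p = 0.200 by edgeR). *Psme3* passed with DESeq2 (adjusted p = 0.0369). With the length correction and the replicate block *Psme3* (adjusted p = 0.039 by edgeR) and *Psme4* (0.0484) passed. The 2 genes matched by name only, *Psmc3ip* and *Psme3ip1*, had -0.43 and 0.03, and neither passed (adjusted p = 0.085 and 0.878 by edgeR).

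**Figure D4:**
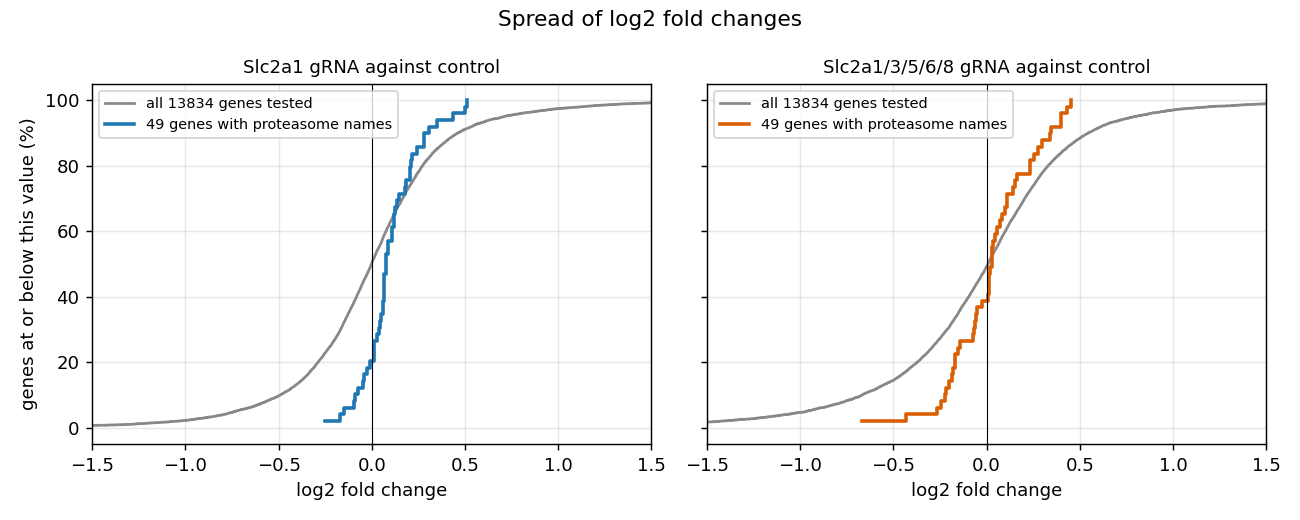
Cumulative share of genes (percent) at or below each log2 fold change against control gRNA, for all 13834 genes tested (grey) and the 49 tested proteasome genes (colour), with *Slc2a1* gRNA on the left and *Slc2a1/3/5/6/8* gRNA on the right. The proteasome curves are steeper, with interquartile ranges of 0.172 and 0.292 against 0.438 and 0.550.

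The pairing of each inducible subunit with the standard subunit it replaces was described by the ratio of their TPM within a sample, which does not depend on the scaling between libraries. *Psmb9* over *Psmb6* was 0.723, 0.703 and 0.697 in control, 0.493, 0.520 and 0.635 in *Slc2a1* gRNA and 0.460, 0.458 and 0.398 in *Slc2a1/3/5/6/8* gRNA cells. The 3 groups did not overlap, and the means were 0.708 ± 0.0133, 0.549 ± 0.0753 and 0.439 ± 0.0348 (SD, n = 3 each). *Psmb8* over *Psmb5* was 2.48, 2.29 and 2.61 in control and 1.66, 1.91 and 1.69 in *Slc2a1/3/5/6/8* gRNA cells, without overlap, and the *Slc2a1* gRNA values of 1.88, 2.01 and 2.32 overlapped both. *Psmb10* over *Psmb7* ran the other way, at 0.733, 0.736 and 0.839 in control and 0.942, 1.11 and 0.887 in *Slc2a1* gRNA cells, without overlap, and at 0.945, 1.01 and 0.822 in *Slc2a1/3/5/6/8* gRNA cells, where replicate 3 lay within the control range.

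Summed over the 3 pairs, the inducible to standard ratio was 1.07, 1.04 and 1.08 in control, 0.933, 0.984 and 1.06 in *Slc2a1* gRNA and 0.860, 0.927 and 0.826 in *Slc2a1/3/5/6/8* gRNA cells. The *Slc2a1/3/5/6/8* gRNA samples lay below all others. *Psmb9* over its neighbour *Psmb8* was 0.826, 0.778 and 0.776 in control, 0.570, 0.652 and 0.658 in *Slc2a1* gRNA and 0.612, 0.552 and 0.474 in *Slc2a1/3/5/6/8* gRNA cells, both edited groups lying below control. *Psme1* over *Psme2* was 1.91, 2.01 and 2.44 in control, 1.90, 2.47 and 2.00 in *Slc2a1* gRNA and 2.64, 2.73 and 2.72 in *Slc2a1/3/5/6/8* gRNA cells. With 3 samples against 3 an exact two-sided permutation test cannot give a p under 0.1, so that test cannot pass a threshold of 0.05. No other test of these 6 ratios is given, and they are reported as values.

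**Figure D5:**
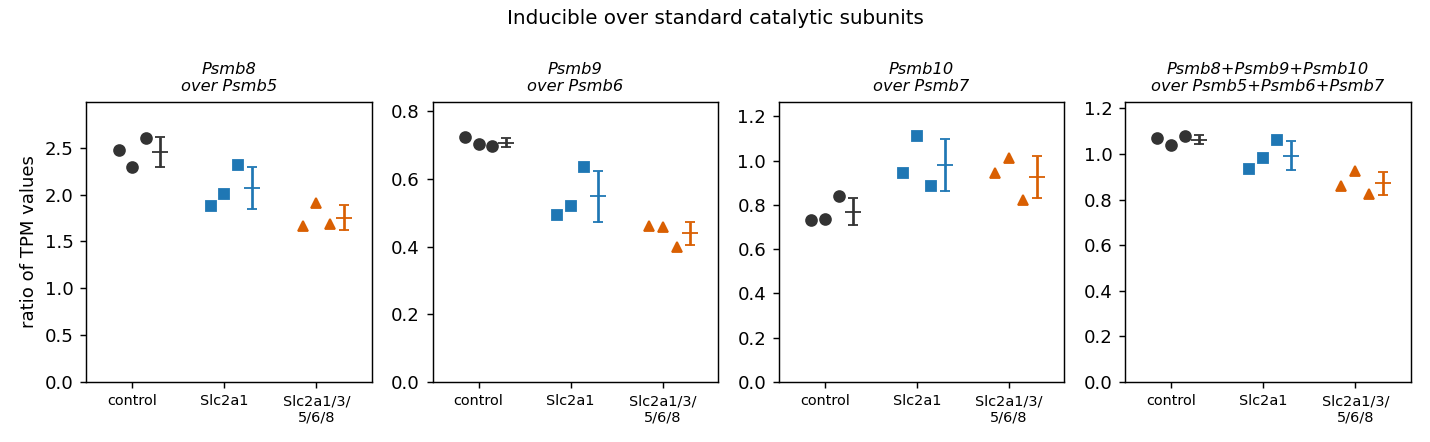
Ratio of TPM values of inducible over standard catalytic subunit genes in each sample, with the group mean and SD. *Psmb9* over *Psmb6* steps down from 0.708 to 0.549 and 0.439 across the groups, and *Psmb10* over *Psmb7* is lowest in control (0.770).

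In the *Slc2a1/3/5/6/8* gRNA cells set against the *Slc2a1* gRNA cells, 0 of the 49 proteasome genes passed the test with edgeR or with DESeq2, against 2.31% of all genes with edgeR. An unadjusted p under 0.05 was found for 9 of the 49, and for 2640 of the 13834 genes tested. The log2 fold change of *Psmb9* was -0.42 (-0.76 to -0.08, adjusted p = 0.170 by edgeR), that of *Psmb8* was -0.30 (adjusted p = 0.184 by edgeR) and that of *Psmb10* was -0.16 (adjusted p = 0.493 by edgeR). *Psme2* was at -0.31 (adjusted p = 0.148 by edgeR) and *Psme1* at -0.07, and *Psmb5*, *Psmb6* and *Psmb7* were at -0.01, -0.12 and -0.19. *Psmb9* passed without *Slc2a1/3/5/6/8* gRNA replicate 1 (log2 fold change -0.62, adjusted p = 0.0322 by edgeR), and over all single omissions it ran from -0.63 to -0.23 with adjusted p up to 0.53. The comparison with control and this one share samples, so their values are not independent.

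A list of 34 genes that work with the proteasome was examined beside the subunits, of which 33 were tested. In the *Slc2a1* gRNA cells 0 rose and 1 fell (3.03%), and in the *Slc2a1/3/5/6/8* gRNA cells 1 rose and 4 fell (15.2%), beside the backgrounds of 4.64% and 15.9%. Of the 5 antigen processing genes, 3 fell in the *Slc2a1/3/5/6/8* gRNA cells. *Nlrc5*, which encodes a transactivator of MHC class I genes and of genes that work with them, was at 141, 87.4 and 105 CPM in control, 111, 91.8 and 89.3 in *Slc2a1* gRNA and 31, 41.1 and 36.2 in *Slc2a1/3/5/6/8* gRNA cells. The *Slc2a1/3/5/6/8* gRNA samples were far below all others, with a log2 fold change of -1.60 against control (-1.96 to -1.24, a fold of 0.331, adjusted p = 0.000180 by edgeR). Against *Slc2a1* gRNA cells it was -1.41 (adjusted p = 0.00126 by edgeR), and neither call was lost on leaving out any 1 of the 9 samples, but the latter was lost with limma on log2(TPM + 1) (adjusted p = 0.0749) and on log2(TPM + 0.1) (adjusted p = 0.0556).

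*Tap1*, which shares the stretch shown above with *Psmb9* (chr17:34187553-34197225, plus strand), was at 383, 333 and 351 CPM in control, 319, 275 and 306 in *Slc2a1* gRNA and 233, 216 and 179 in *Slc2a1/3/5/6/8* gRNA cells. No *Slc2a1/3/5/6/8* gRNA sample reached the level of any other sample. The log2 fold change against control was -0.77 (-1.02 to -0.52, adjusted p = 0.00156 by edgeR), kept on leaving out any 1 sample, and against *Slc2a1* gRNA cells it was -0.52 (adjusted p = 0.0358 by edgeR). The latter was lost without any control or *Slc2a1* gRNA replicate or *Slc2a1/3/5/6/8* gRNA replicate 3 (adjusted p 0.0661 to 0.137 by edgeR) and without the replicate block (0.0663), as well as with total count scaling (0.0724), with only the 2 groups compared (0.154) and with limma on log2(TPM + 1) (0.303). *Tapbp*, encoding tapasin, which loads peptides onto MHC class I, fell in both edited groups, by 0.61 with the *Slc2a1* gRNA (adjusted p = 0.0324 by edgeR) and by 0.54 with the *Slc2a1/3/5/6/8* gRNA set (adjusted p = 0.0233 by edgeR). *Tap2* and *Irf1* did not pass in either comparison with control, with log2 fold changes of -0.30 and -0.17 in the *Slc2a1/3/5/6/8* gRNA cells.

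Of 4 genes that regulate transcription of subunit genes, *Nfe2l1*, encoding the factor that raises proteasome gene transcription when proteasome activity falls, rose in the *Slc2a1/3/5/6/8* gRNA cells. It was at 401, 440 and 446 CPM in control, 397, 343 and 429 in *Slc2a1* gRNA and 529, 592 and 613 in *Slc2a1/3/5/6/8* gRNA cells. In CPM the highest group did not overlap the others, with a log2 fold change of 0.43 against control (adjusted p = 0.0254 by edgeR) and 0.57 against *Slc2a1* gRNA cells (adjusted p = 0.0270 by edgeR). In TPM it overlapped both. *Nfe2l1* was at 130, 123 and 155 TPM in control, 105, 72.5 and 132 in *Slc2a1* gRNA and 117, 200 and 219 in *Slc2a1/3/5/6/8* gRNA cells. *Pomp*, the maturation factor needed to assemble the core, fell by 0.40 on the log2 scale in the *Slc2a1/3/5/6/8* gRNA cells, from 31.5 ± 3.24 to 24.0 ± 4.63 CPM (SD, n = 3 each, adjusted p = 0.0419 by edgeR, and 0.0912 without the block). The calls against control were lost without any control replicate or *Slc2a1/3/5/6/8* gRNA replicate 2 or 3 for *Nfe2l1* and *Pomp*, for *Pomp* also without *Slc2a1* gRNA replicate 2 or 3, and for *Tapbp* without control replicate 1 or 3 or *Slc2a1/3/5/6/8* gRNA replicate 3, with adjusted p up to 0.213 by edgeR. Where lost, the log2 fold changes were 0.38 to 0.49 for *Nfe2l1*, -0.46 to -0.27 for *Pomp* and -0.56 to -0.33 for *Tapbp*. With the *Slc2a1* gRNA the call of *Tapbp* was lost without any control replicate or *Slc2a1* gRNA replicate 1 or 2 (up to 0.229), and that of *Nfe2l1* between the edited groups was lost without 7 of the 9 samples (up to 0.212, kept without *Slc2a1* gRNA replicate 1 or *Slc2a1/3/5/6/8* gRNA replicate 1), both by edgeR. With limma on log2(TPM + 1) no call of these 3 genes was kept, with adjusted p of 0.112 for *Tapbp* with the *Slc2a1* gRNA and, in *Slc2a1/3/5/6/8* gRNA cells against control, of 0.0918 for *Tapbp*, 0.377 for *Nfe2l1* and 0.686 for *Pomp*, and of 0.214 for *Nfe2l1* between the edited groups. The adjusted p by edgeR was 0.0560 for *Nfe2l1* against control with total count scaling, and with only the 2 groups compared it was 0.0573 for *Pomp* against control and 0.155 for *Nfe2l1* between the edited groups.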

How the data were processed

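Total RNA was taken with the NucleoSpin RNA XS kit and libraries were made with the SMARTseq V4 kit, which is primed on poly(A) and does not mark strand. The authors ran Salmon (1.5.1, per the submitters' processing notes) on the Galaxy platform and deposited, for each sample, estimated counts and TPM per gene. TPM are scaled by transcript length and by the library total. The genome build and annotation are not given in the sources used here, so positions are from GENCODE M21 (GRCm38) by gene symbol. Total estimated counts ran from 21838805 to 30537105 per sample. The tested proteasome genes had a median estimated count of 2270 and a lowest one of 24.87, and 75.9% of their 449 counts above 0 were not whole, since Salmon shares reads among transcripts.

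Estimated counts were rounded and fitted with edgeR 4.0.16 (R 4.3.3, quasi-likelihood, TMM scaling, filterByExpr by group) over all 9 samples with the replicate number as a block, after the paired test named in the study. P-values were adjusted by Benjamini-Hochberg over 13834 genes with a threshold of 0.05, and intervals are at 95%. Same-numbered samples deviated together between control and *Slc2a1* gRNA cells (correlations 0.224, 0.163 and 0.322, each over 0.1). limma 3.58.1 and DESeq2 1.42.0 served as alternatives, and tables were made with Python 3.11.15, pandas 2.3.3, SciPy 1.17.1 and matplotlib 3.10.9. The scripts were tested on simulated data. Full statistics are given for each gene called (at most the 12 with the smallest adjusted p in a comparison), for *Psmb5* to *Psmb10*, *Psme1* and *Psme2*, and for partner genes called. Genes named beside these as the ends of a range, or as values that missed the threshold, were chosen after their values were seen. The members and lists were chosen with earlier results of these data known, and 2 genes first on the list of partners are not reported here and are in no count. Exons of 6 proteasome genes overlap another gene over more than 10% of their length (*Psmb5*, *Psmb7*, *Psmb8*, *Psmc3ip*, *Psmd13* and *Psmd9*), so reads of the pair cannot be told apart there. Replicates differed by more than the sampling noise.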

Additional observations from a re-analysis of the deposited data

How the results depend on the processing

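The fall of *Psmb9* in *Slc2a1/3/5/6/8* gRNA cells passed the test under all 9 settings other than leaving out a sample, and all other calls of proteasome genes were lost under at least one of them. In *Slc2a1* gRNA cells the 2 proteasome genes called became 1 without the replicate block, 4 with DESeq2, 0 with total count scaling, 6 with only the 2 groups compared and 0 with limma on log2(TPM + 1) or log2(TPM + 0.1), and 0 to 3 on leaving out 1 sample. In *Slc2a1/3/5/6/8* gRNA cells the 4 called became 1 with total count scaling, 1 with limma at either pseudocount, 9 with a correction for gene length together with the replicate block, and 0 to 5 on leaving out 1 sample. Between the edited groups the count of 0 became 1 (*Psmb9*, log2 fold change -0.41) without a filter on low counts, and 0 to 1 on leaving out 1 sample. The cause was not tested.

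Only genes that did not pass the test changed sign, here as log2 fold changes. For *Slc2a1* gRNA against control, total count scaling gave -0.026 for *Psmb6* and -0.064 for *Psmb8*, and the length correction with the replicate block gave -0.0021 and -0.018. limma on log2(TPM + 1) gave -0.082 for *Psmb6*, -0.035 for *Psmb7*, -0.11 for *Psmb8*, -0.055 for *Psme1* and -0.055 for *Psme2*, and limma on log2(TPM + 0.1) gave -0.083, -0.035, -0.11, -0.055 and -0.056. Leaving out 1 sample gave -0.022 to 0.17 for *Psmb6* and -0.027 to 0.11 for *Psmb8*. For *Slc2a1/3/5/6/8* gRNA against control, limma gave -0.020 for *Psme1* at both pseudocounts, and leaving out 1 sample gave -0.19 to 0.11 for *Psmb6* and -0.15 to 0.015 for *Psmb7*. Between the edited groups *Psmb5* was at 0.034 with total count scaling, 0.00069 without a filter, 0.064 and 0.064 with limma and 0.062 with the length correction and the replicate block, *Psme1* was at 0.035 and 0.035 with limma, and leaving out 1 sample gave -0.11 to 0.19 for *Psmb5*, -0.26 to 0.039 for *Psmb6* and -0.12 to 0.016 for *Psme1*.

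With 3 replicates a group the median standard error over the proteasome genes was 0.116 on the log2 scale. Total count scaling moved all genes as well, from 311 higher and 331 lower to 176 and 561 for *Slc2a1* gRNA, from 1175 and 1029 to 822 and 1141 for *Slc2a1/3/5/6/8* gRNA against control, and from 188 and 131 to 205 and 90 between the edited groups. limma on log2(TPM + 1) moved the median of all genes to -0.11 in the first comparison and called 0, 433 and 31 genes in the 3 comparisons. Over all genes the calls ran from 0 to 2268, 433 to 2859 and 31 to 974 across those settings, and from 11 to 1291, 631 to 2559 and 42 to 383 on leaving out 1 sample. The block was kept for comparisons in which the numbers do not pair the samples. Same-number correlations were 0.191, -0.113 and 0.177 for *Slc2a1/3/5/6/8* gRNA with control, and -0.149, -0.107 and -0.0403 between the edited groups, and 3 of 6 and 0 of 6 samples correlated best with their own number. Without the replicate block 1, 3 and 0 proteasome genes were called in the 3 comparisons, and apart from *Psmg4*, *Pomp* and *Tap1* between the edited groups, none of the genes compared across settings changed its call. These were the genes called in a comparison on the lists of proteasome and partner genes, *Psmb5* to *Psmb10*, *Psme1* and *Psme2*. For the other proteasome genes only the calls were listed by setting. Other genes named, such as the markers and the targeted genes, were not compared across settings.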
